A study of Homo sapiens with 28 samples.

Results

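The CDK inhibitor genes CDKN2A, CDKN2B and CDKN1A were described by the peaks around them in 28 CUT&RUN peak lists from IMR-90 ER:Ras cells. All peaks that overlapped 1 of 2 windows of build hg19 were taken, chr9:21850000-22200000 for CDKN2A and CDKN2B (350 kb) and chr6:36540000-36760000 for CDKN1A (220 kb). This gave 590 of 1123812 peaks in all lists, 426 in the chromosome 9 window and 164 in the chromosome 6 window. In CUT&RUN an antibody directs a nuclease to cut the DNA beside the bound protein or mark, and a peak is a stretch with more cut fragments than its surroundings. IMR-90 ER:Ras are human fetal lung fibroblasts whose Ras oncogene is switched on by 4-hydroxytamoxifen. The antibodies were to the forkhead factor FOXF1 (8 libraries), to phosphorylated c-JUN (p-c-JUN, the active form of an AP-1 subunit, 6 libraries) and to H3K27ac (histone H3 acetylated at lysine 27, found at active promoters and enhancers, 14 libraries).

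All groups used the same line. Titles named proliferating (Pro) cells, senescent (Sen) cells, and Sen cells after siFOXF1/2 (small interfering RNA to FOXF1 and FOXF2), after sip300/CBP (to the acetyltransferases p300 and CBP, with a Sen control of its own) or after cJUN/JUND-KD, a knockdown whose treatment tag also named JUNB. Per the labels, 100 nM 4-hydroxytamoxifen was given for 6 days. Treatment and cell type tags of the Pro samples were those of senescent cells too, so their state rests on the titles alone. The Pro samples, the Sen samples and the sip300/CBP control all carried siCtrl, a control siRNA. Each group had 2 libraries per antibody, except H3K27ac in Sen cells, with 2 in the first deposit (replicates 1 and 2) and 2 in the second (replicates 3 and 4). The cJUN/JUND-KD libraries were all from the second deposit. The labels do not tie replicates to separate cultures, and each p-value therefore reflects the spread among libraries alone, part or all of which may be technical.

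CDKN1A codes for p21, CDKN2A for p16INK4a and, from another first exon, ARF, and CDKN2B for p15INK4b. p16INK4a and p15INK4b bind CDK4 and CDK6, p21 inhibits cyclin-CDK complexes more widely and is a classic target of p53, and ARF stabilises p53 by holding back MDM2. Together they keep RB unphosphorylated, which holds the cell cycle arrest of senescence. CDKN2B-AS1, a long noncoding RNA also called ANRIL, runs opposite to CDKN2B. By gene order alone in RefSeq (GRCh38.p14), MTAP lies on one side of CDKN2A, followed by CDKN2B-AS1, CDKN2B and DMRTA1. CDKN1A lies between SRSF3 and PANDAR on one side and RAB44 and CPNE5 on the other.

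The sequences just before the starts of the 3 genes are shown because the windows were drawn around these genes. They are the 250 bases before each RefSeq start in GRCh38.p14, 5′ to 3′ on the gene's strand, and capitals mark CpG dinucleotides. CDKN2A has 2 starts in that table. The peaks are in hg19 coordinates, so no peak was placed on these sequences.
CDKN1A, chr6:36678464-36678713, plus strand: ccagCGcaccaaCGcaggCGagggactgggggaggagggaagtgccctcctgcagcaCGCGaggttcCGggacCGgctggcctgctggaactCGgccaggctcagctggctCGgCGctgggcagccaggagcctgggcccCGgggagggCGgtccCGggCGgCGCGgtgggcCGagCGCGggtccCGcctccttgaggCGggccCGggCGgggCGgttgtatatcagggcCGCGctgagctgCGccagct
CDKN2A, chr9:21974858-21975107, minus strand: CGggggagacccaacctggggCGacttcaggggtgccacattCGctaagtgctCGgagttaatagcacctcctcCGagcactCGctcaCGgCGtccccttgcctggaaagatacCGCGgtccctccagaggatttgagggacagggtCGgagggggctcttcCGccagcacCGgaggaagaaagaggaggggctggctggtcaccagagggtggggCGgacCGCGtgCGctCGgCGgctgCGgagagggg
CDKN2A, chr9:21995325-21995574, minus strand: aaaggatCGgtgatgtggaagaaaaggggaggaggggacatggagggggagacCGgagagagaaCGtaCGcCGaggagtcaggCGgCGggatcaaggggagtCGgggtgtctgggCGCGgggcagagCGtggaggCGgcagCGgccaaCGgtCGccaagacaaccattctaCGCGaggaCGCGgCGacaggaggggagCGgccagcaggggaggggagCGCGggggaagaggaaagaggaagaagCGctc
CDKN2B, chr9:22009306-22009555, minus strand: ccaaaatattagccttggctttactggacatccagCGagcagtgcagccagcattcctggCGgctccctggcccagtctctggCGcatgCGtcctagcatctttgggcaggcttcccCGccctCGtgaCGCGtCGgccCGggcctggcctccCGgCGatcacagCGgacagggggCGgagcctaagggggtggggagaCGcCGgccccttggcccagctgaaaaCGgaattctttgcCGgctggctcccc
All 4 were rich in G and C. The CDKN1A promoter had a GC content of 76.4% and 27 CpG dinucleotides, the CDKN2A promoters 66.8% each with 20 and 24, and the CDKN2B promoter 66.4% with 18, against medians of 58.0% and 11 over the 35116 promoters of the table. Neither strand of the 4 held the forkhead motif TGTTTAC, the AP-1 motif TGANTCA, the cyclic AMP response element TGACGTCA or the TATA box letters TATAAA, which were found in 2.98%, 6.57%, 1.65% and 10.7% of all promoters of that length. This says only that these letters are not in these windows.

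The lists differed in length by far, from 133 to 93443 peaks, and peak numbers in the windows have to be read beside that. FOXF1 lists held 3441 and 11061 peaks in Pro cells, 13603 and 40537 in Sen cells, 186 and 133 after siFOXF1/2 and 378 and 883 after cJUN/JUND-KD. The p-c-JUN lists held 24808 and 32136 peaks in Pro cells, 70177 and 93443 in Sen cells and 75005 and 86110 after siFOXF1/2. H3K27ac lists held 26694 to 89329 peaks, except the 4 of the sip300/CBP experiment with 1549 to 8234. The number of mapped reads is unknown, and the depth estimated from the lists was 2.21 to 8.28 fragments per kilobase. The FOXF1 lists after siFOXF1/2 had a narrowest peak of 76 bp, against 182 bp or more in every other list.

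FOXF1 had peaks near CDKN2A and CDKN2B in Pro and Sen cells and almost none near CDKN1A. The chromosome 9 window held 3 and 7 FOXF1 peaks in the Pro libraries and 9 and 17 in the Sen libraries, with 0 in both libraries after siFOXF1/2 and 0 in both after cJUN/JUND-KD. The Pro and Sen groups did not overlap, and neither did their whole lists (3441 and 11061 against 13603 and 40537 peaks). The estimated depth was 3.21 and 2.73 fragments per kilobase in these Pro libraries and 2.44 and 2.70 in the Sen libraries. In the chromosome 6 window there were 0 and 0 in Pro cells, 1 and 2 in Sen cells, and 0 in all 4 knockdown libraries. The 3 peaks near CDKN1A lay at 3 different places, so no FOXF1 region there was held by 2 libraries. Of these, chr6:36561642-36561948 was in Sen replicate 1, and chr6:36540697-36541106 and chr6:36645436-36645787 in Sen replicate 2.

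**Figure D1:**
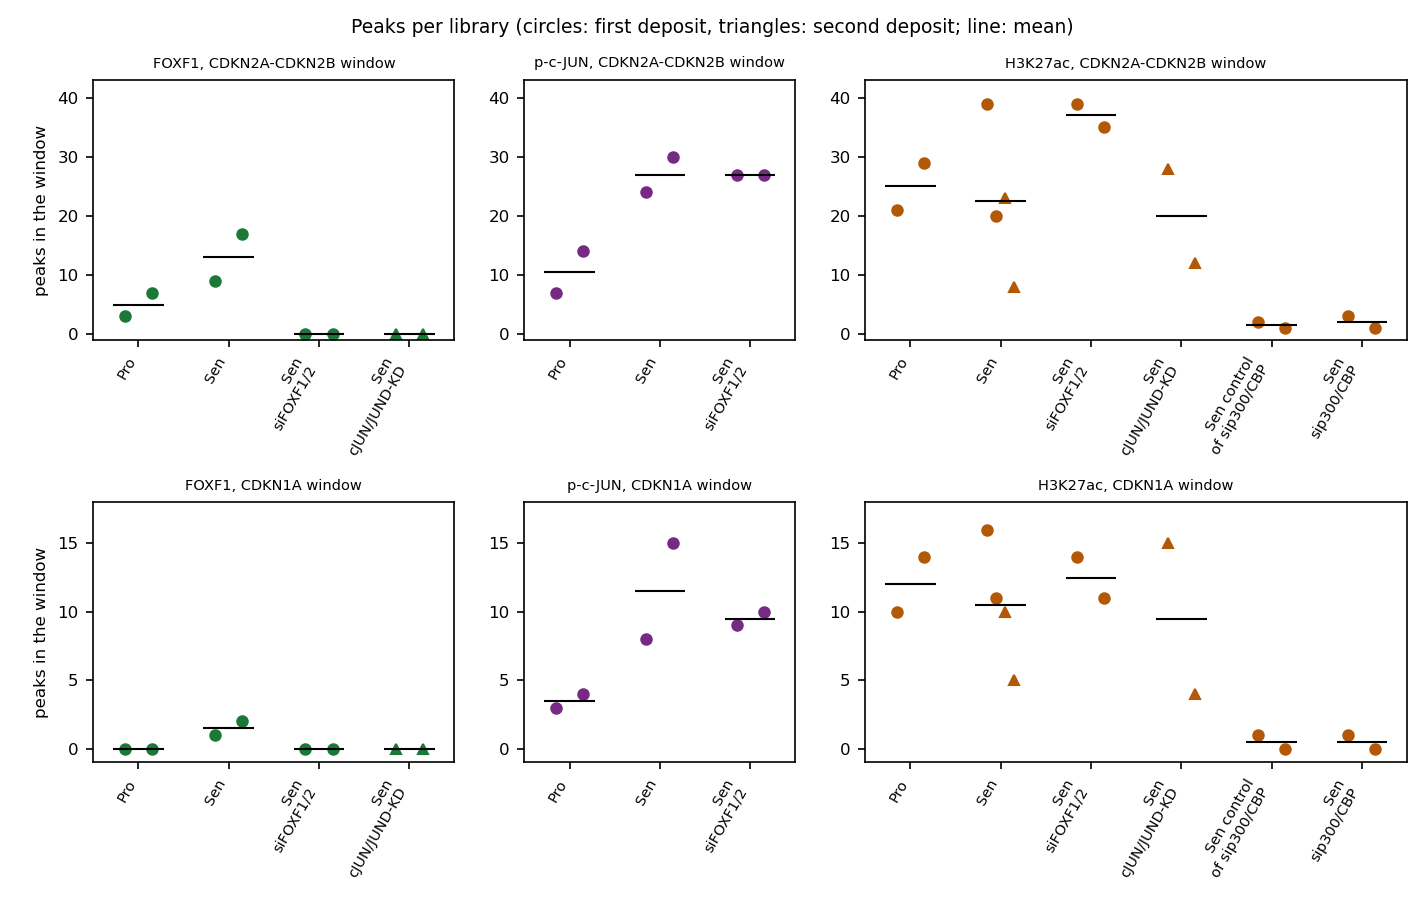
Peaks in each window (vertical axis, number per library) by antibody and condition, with 1 point per library and a line at the group mean. FOXF1 and p-c-JUN points lie higher in Sen than in Pro cells in both windows, FOXF1 points lie at 0 after both knockdowns, and the H3K27ac Pro and Sen points overlap.

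On the scale of log2(peaks + 1), Sen minus Pro for FOXF1 was 1.25 ± 0.656 (SE, n = 2 against 2; exact two-sided permutation test, p = 0.33) in the chromosome 9 window and 1.29 ± 0.293 (p = 0.33) in the chromosome 6 window. With 6 arrangements of the libraries, 0.33 is the smallest p this design can give, so no comparison here can pass a threshold of 0.05. When all 4 lists were shortened to equal length by −log10 q, the difference was 0.66 at chromosome 9 and 0.00 at chromosome 6. The density of FOXF1 peaks in the chromosome 9 window was 5.33 to 7.34 times that of the whole list in Pro cells and 3.53 to 5.57 times in Sen cells, and in the chromosome 6 window 0.661 to 0.984 times in Sen cells.

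Peaks of the 4 libraries of a comparison that overlapped by at least 1 bp were joined into regions. A region counted as gained in Sen cells (against Pro) or after a knockdown (against its Sen libraries) if each library of that group had a peak in it and those of the other group had none. It counted as lost in the opposite case. Leaving out a library makes this rule looser, and using all 4 Sen libraries makes it stricter. Apart from changes in how peaks join, counts can then only rise or stay in the first case. In the second case they can only fall or stay. The direction of such shifts was thus set by the rule, and only their size is informative. From Pro to Sen cells, 5 of 18 FOXF1 regions of the chromosome 9 window were gained, 0 were lost and 3 were held by all 4 libraries, where 13.1% of FOXF1 regions of the whole genome were gained and 0.35% lost. Of FOXF1 regions shared by both Sen libraries, 5 of 9 were gained in this window. Over the genome 5948 were gained, beside 11287 shared by the Sen libraries. The gained count in the window was 11 without Sen replicate 1, 3 at −log10 q of 5 or more and 2 in lists of equal length. Without Pro replicate 1 there was 1 lost region. Of 3 FOXF1 regions near CDKN1A, 0 were gained, against 2 without Sen replicate 1 and 1 without Sen replicate 2.

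The strongest gained FOXF1 region was chr9:22030195-22030440, 246 bp wide. Its fold enrichment over local background, as the authors' peak caller gave it, was 12.8 in Sen replicate 1 and 8.45 in replicate 2, within the top 1.96% and 7.67% of their lists by −log10 q. The other 4 gained regions ranked lower in at least 1 library. At chr9:21919233-21920284 the fold enrichments were 6.18 and 5.24, at chr9:22124538-22125030 4.72 and 7.21, at chr9:22170279-22170677 3.92 and 8.17, and at chr9:22068633-22068942 3.87 and 3.79. The last of these lay in the weakest 10% of both lists.

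The 3 FOXF1 regions held in Pro and Sen cells alike were chr9:22052345-22053223, chr9:22084468-22085157 and chr9:22158737-22159388. At the first, the fold enrichment was 7.87 and 8.82 in the Pro libraries and 8.72 and 6.90 in the Sen libraries. At the second it was 6.52 and 6.26 in Pro cells and 4.73 and 8.45 in Sen cells, and at the third 5.07 and 5.36 in Pro cells and 5.83 and 6.90 in Sen cells. One more region, chr9:22147833-22148355, had a peak in Pro replicate 2 (5.35) and in both Sen libraries (9.62 and 11.2). Its peaks were within the top 4.51% and 1.28% of the Sen lists.

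After siFOXF1/2, all 9 FOXF1 regions shared by the Sen libraries near CDKN2A and CDKN2B had no peak in either library, and the same 9 had none after cJUN/JUND-KD. Both comparisons use the same Sen libraries. Over the genome, 26.2% of regions were lost after siFOXF1/2 and 25.4% after cJUN/JUND-KD, and 0.0607% and 0.148% gained. Genome-wide, among regions that both Sen libraries held, 0.576% and 0.523% had a peak in the 2 siFOXF1/2 libraries and 1.39% and 2.06% in the 2 cJUN/JUND-KD libraries. The peak number differed from Sen cells by −3.75 ± 0.424 log2 units at chromosome 9 and −1.29 ± 0.293 at chromosome 6 in each knockdown (exact permutation test, p = 0.33 each). In lists of equal length, which keep at most the 133 strongest peaks for siFOXF1/2, 0 regions were lost in either knockdown. The count was 4 at −log10 q of 5 or more and 17 without Sen replicate 1. At CDKN1A, 0 regions were lost, against 2 without Sen replicate 1 and 1 without Sen replicate 2. All cJUN/JUND-KD libraries belong to the second deposit and these Sen libraries to the first, and the effects of knockdown and deposit cannot be told apart here.

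**Figure D2:**
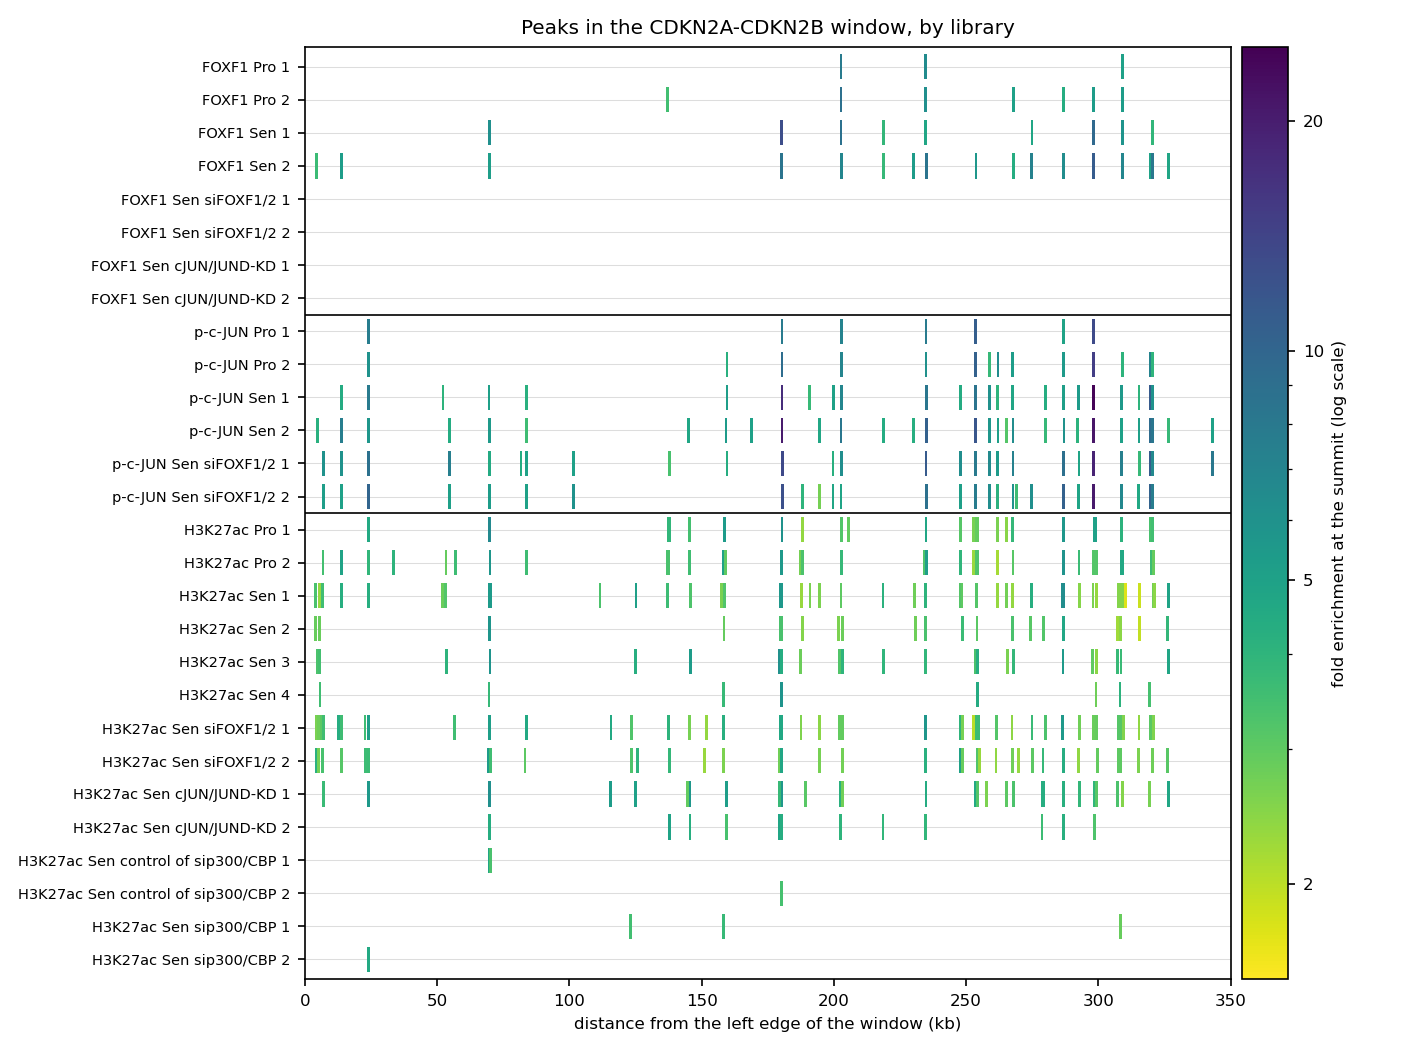
Peaks of the 28 libraries (rows, grouped by antibody and condition) along the CDKN2A-CDKN2B window (horizontal axis, kilobases from its left edge), coloured by the authors' fold enrichment on a log scale. Each mark is 1 peak, drawn at least 0.3% of the axis wide. FOXF1 and p-c-JUN marks are denser in the right part of the window, and the 4 FOXF1 knockdown rows hold 0 peaks.

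Phosphorylated c-JUN had a higher mean peak number than FOXF1 in both windows, in Pro and in Sen cells. Its whole lists were also longer. In the chromosome 9 window there were 7 and 14 p-c-JUN peaks in Pro cells, 24 and 30 in Sen cells, and 27 and 27 after siFOXF1/2. The CDKN1A window held 3 and 4 in Pro cells, 8 and 15 in Sen cells, and 9 and 10 after siFOXF1/2. All Sen and siFOXF1/2 libraries lay above all Pro libraries in both windows. Sen minus Pro was 1.35 ± 0.479 log2 units at chromosome 9 and 1.42 ± 0.445 at chromosome 6 (exact permutation test, p = 0.33 each). In lists of equal length the difference was 0.02 at chromosome 9 and −1.0 at chromosome 6, so the excess of peaks was not seen once the longer Sen lists were cut to the length of the Pro lists. Relative to its own list, the p-c-JUN density was 2.37 to 3.67 times the genome's in the chromosome 9 window and 1.53 to 2.15 times in the CDKN1A window over all 6 libraries. For FOXF1 the ratio at chromosome 9 was higher, at 5.33 to 7.34 in Pro cells and 3.53 to 5.57 in Sen cells. At CDKN1A it was lower, at 0.661 to 0.984 in Sen cells.

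Of 41 p-c-JUN regions in the chromosome 9 window, 7 were held by all 6 libraries. The strongest was chr9:22147729-22148638, which covers the FOXF1 region at chr9:22147833-22148355. Its fold enrichment was 13.3 and 15.0 in Pro cells, 24.2 and 21.4 in Sen cells, and 19.1 and 20.7 after siFOXF1/2. In the Sen lists it ranked within the top 0.0185% and 0.0696% of all peaks by −log10 q. At chr9:22030111-22030766, which covers the strongest gained FOXF1 region, p-c-JUN enrichment was 7.82 and 9.27 in Pro cells, 17.4 and 20.5 in Sen cells, and 13.4 and 12.6 after siFOXF1/2. A p-c-JUN peak was thus present there in Pro cells, where neither FOXF1 list had one, and after siFOXF1/2, where the FOXF1 lists again had none. Folds of different lists were not tested against each other.

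The other 5 p-c-JUN regions held by all 6 libraries had enrichments of 4.82 to 11.7. chr9:22103241-22103899 had 10.9 and 10.5 in Pro cells, 8.50 and 11.7 in Sen cells, and 7.90 and 7.74 after siFOXF1/2. At chr9:22084518-22085181 the values were 7.84 and 6.10, then 8.33 and 10.6, then 11.3 and 8.88, and at chr9:22052275-22053174 7.10 and 6.92, then 6.88 and 8.20, then 6.28 and 4.82, in the same order of conditions. Both of these overlap FOXF1 regions held in Pro and Sen cells. At chr9:22136561-22137235 the p-c-JUN folds were 4.87 and 5.45 in Pro cells, 5.16 and 5.99 in Sen cells, and 8.93 and 10.6 after siFOXF1/2. The last, chr9:21873760-21874346, lay in the left part of the window with 7.70 and 5.98, 7.81 and 5.72, and 8.73 and 10.1.

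From Pro to Sen cells, 6 of 34 p-c-JUN regions near CDKN2A and CDKN2B were gained and 0 lost, a share of 17.6% against 28.0% gained over the genome (0.307% lost). The gained count was 13 without Pro replicate 2, 16 without Sen replicate 1, 10 without Sen replicate 2 and 1 in lists of equal length. The gained regions were chr9:22165200-22165466, chr9:22141987-22143028, chr9:21919434-21919868, chr9:21863635-21864106, chr9:22129883-22130219 and chr9:21933571-21933994, with fold enrichments of 3.58 to 7.57. One of them, chr9:21919434-21919868, overlaps the FOXF1 region gained at chr9:21919233-21920284. Apart from chr9:22129883-22130219, these gained places also had a peak in both siFOXF1/2 libraries.

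Near CDKN1A, 4 of 17 p-c-JUN regions were gained and 0 lost from Pro to Sen cells, and 1 was held by all 4 libraries. The gained share was 23.5%, against 28.0% over the genome. The gained count was 11 without Sen replicate 1 and 1 in lists of equal length, and 1 region was lost without Pro replicate 1 or without Sen replicate 2. The strongest was chr6:36723284-36723757, with 7.32 and 9.97 in Sen cells and 4.08 and 6.69 after siFOXF1/2. The others were chr6:36707828-36708167 (5.66 and 4.30), chr6:36540432-36541212 (4.81 and 4.00) and chr6:36634683-36635198 (3.08 and 5.64). No p-c-JUN region of this window was held by all 6 libraries, and 3 were held by 5. Of these, chr6:36647777-36648531 had a peak in every list but Sen replicate 1, with 5.59 and 5.04 in Pro cells, 6.58 in Sen replicate 2, and 4.67 and 6.57 after siFOXF1/2.

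After siFOXF1/2, p-c-JUN regions near CDKN2A and CDKN2B were gained and lost in shares near those of the whole genome. Of 20 regions shared by the Sen libraries, 19 had a peak in siFOXF1/2 replicate 1 and 18 in replicate 2, where 81.5% and 87.3% did over the genome. Of 41 regions in the comparison, 2 were gained, 1 was lost and 18 were held by all 4 libraries, against 4.47% gained and 4.03% lost over the genome. The gained regions were chr9:21856944-21857208 (fold 6.04 and 5.22) and chr9:21951302-21951701 (5.05 and 6.02), and the lost one was chr9:22129883-22130219 (4.37 and 3.78 in Sen cells). The lost count was 8 without Sen replicate 1, 3 without Sen replicate 2, 2 without siFOXF1/2 replicate 1 and 0 in lists of equal length, and the gained count was 4, 5 and 4 without Sen replicate 1, siFOXF1/2 replicate 1 and siFOXF1/2 replicate 2. The difference in peak number was 0.01 ± 0.155 log2 units (exact permutation test, p = 1).

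At CDKN1A, 3 and 4 of the 7 p-c-JUN regions shared by the Sen libraries had a peak in the 2 siFOXF1/2 libraries, against 81.5% and 87.3% over the genome. Of 21 regions, 3 were lost, 1 was gained and 3 were held by all 4, where 4.03% were lost and 4.47% gained over the genome. The lost regions were chr6:36707828-36708167 and chr6:36540432-36541212, both gained from Pro to Sen cells with the same Sen libraries, and chr6:36561682-36562035 (3.79 and 7.18 in Sen cells), which also had a peak in both Pro libraries. The gained region was chr6:36625742-36626289 (5.56 and 5.30). The lost count was 6 without Sen replicate 1, 1 in lists of equal length and 0 at −log10 q of 5 or more, and the gained count was 2 without Sen replicate 2 and 3 without either siFOXF1/2 library. The peak number differed by −0.19 ± 0.421 log2 units (exact permutation test, p = 1), and whether the 2 windows differ in this was not tested.

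**Figure D3:**
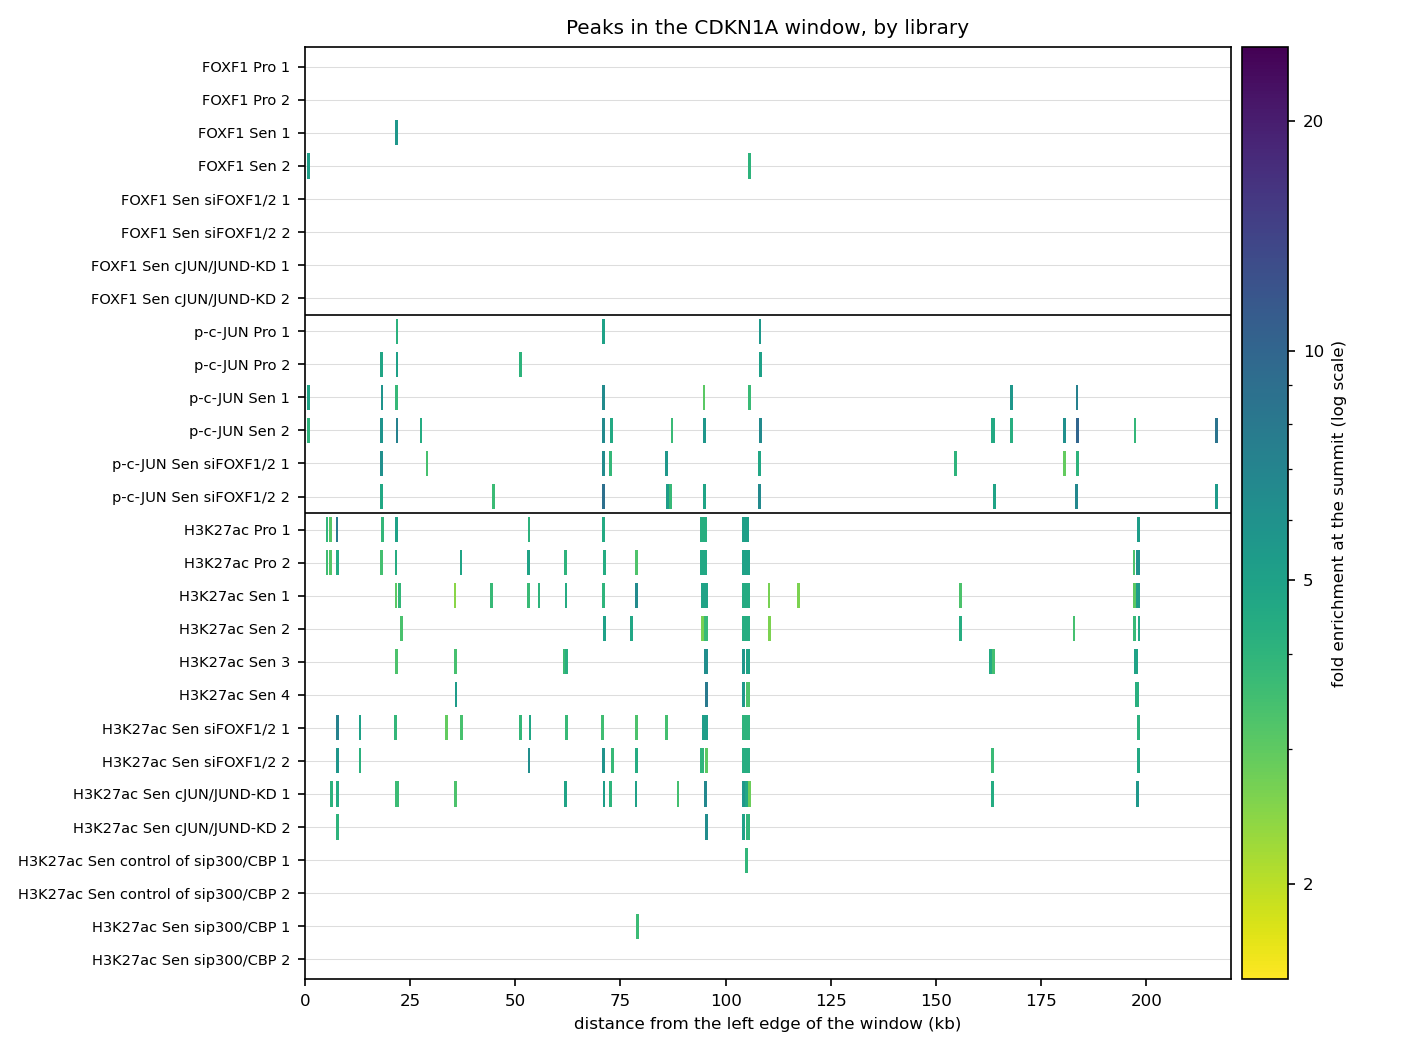
Peaks of the 28 libraries (rows) along the CDKN1A window (horizontal axis, kilobases from its left edge), coloured by the authors' fold enrichment on a log scale. H3K27ac marks line up in 10 or 11 of 14 rows at 2 places near the middle of the window, while FOXF1 has 3 peaks in all.

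H3K27ac peaks were present near the 3 genes in Pro and Sen cells, in numbers that overlapped between the groups. The chromosome 9 window held 21 and 29 peaks in Pro cells, 39, 20, 23 and 8 in Sen replicates 1 to 4, 39 and 35 after siFOXF1/2, and 28 and 12 after cJUN/JUND-KD. The CDKN1A window held 10 and 14 in Pro cells, 16, 11, 10 and 5 in Sen cells, 14 and 11 after siFOXF1/2, and 15 and 4 after cJUN/JUND-KD. In the sip300/CBP experiment there were 2 and 1 peaks in the control and 3 and 1 after knockdown at chromosome 9, and 1 and 0 in each group at CDKN1A. Relative to its own list, the H3K27ac density at CDKN1A was 1.588 to 2.098 times the genome's in Pro cells. In Sen replicates 1 to 4 it was 2.419 to 2.74 times, without overlap. At chromosome 9 the ratios overlapped, at 2.096 to 2.732 in Pro and 2.522 to 3.961 in Sen cells. These ratios were not tested, and lists of equal length showed no excess of Sen peaks at CDKN1A.

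Sen minus Pro was 0.17 ± 0.516 log2 units at chromosome 9 (exact permutation test, p = 1) and 0.15 ± 0.336 at CDKN1A (exact permutation test, p = 0.667) for Sen replicates 1 and 2. With all 4 Sen libraries it was −0.32 and −0.25, and with those of the second deposit −0.81 and −0.66, so its direction depended on the Sen libraries used. The second deposit lists were shorter, with 48859 and 26694 peaks against 84304 and 89329 in Pro cells. No Pro library was of that deposit, so state, deposit and list length cannot be told apart there. After siFOXF1/2 the difference from Sen cells was 0.39 ± 0.471 and −0.09 ± 0.298 (exact permutation test, p = 1 each). After cJUN/JUND-KD, set against Sen replicates 3 and 4, it was 0.40 ± 0.914 (exact permutation test, p = 0.667) and 0.14 ± 0.946 (p = 1). After sip300/CBP it was 0.21 ± 0.579 and 0.00 ± 0.707 (exact permutation test, p = 1 each), from 0 to 3 peaks per library.

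In the CDKN1A window, chr6:36643817-36645814 had H3K27ac peaks in 11 of 14 libraries, all but 3 of those in the sip300/CBP experiment. The fold enrichment at its highest peak was 5.16 and 4.93 in Pro cells, 4.48, 4.38, 5.67 and 5.52 in Sen replicates 1 to 4, 4.05 and 4.31 after siFOXF1/2, 5.60 and 4.96 after cJUN/JUND-KD, and 3.94 in replicate 1 of the sip300/CBP control. Its best peak ranked within the top 0.345% to 2.95% of the Pro, Sen and cJUN/JUND-KD lists by −log10 q, in the 2 siFOXF1/2 lists within the top 10.0% and 4.08%, and in the control list within the top 12.2%. The values of Pro and Sen cells overlapped. The single p-c-JUN peak and the single FOXF1 peak that fell here, chr6:36645557-36645808 in p-c-JUN Sen replicate 1 and chr6:36645436-36645787 in FOXF1 Sen replicate 2, were among the weakest 15% of their lists.

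Near CDKN2A and CDKN2B, none of 55 H3K27ac regions was held by all 14 libraries, and 2 were held by 11. At chr9:22029073-22030889, which covers the p-c-JUN and FOXF1 regions at its right end, the fold enrichment was 6.03 and 5.50 in Pro cells, 5.59, 3.35, 6.12 and 5.81 in Sen replicates 1 to 4, 4.60 and 4.73 after siFOXF1/2, 5.62 and 4.71 after cJUN/JUND-KD, and 3.44 in replicate 2 of the sip300/CBP control. At chr9:21919094-21920579 it was 6.68 and 5.70 in Pro cells, 5.37, 5.77, 5.80 and 3.81 in Sen cells, 5.18 and 5.35 after siFOXF1/2, 6.17 and 4.35 after cJUN/JUND-KD, and 4.73 in replicate 1 of the sip300/CBP control. From Pro to Sen cells FOXF1 peaks were gained within both of these H3K27ac regions. The p-c-JUN peak was gained within the second and was held by all 6 libraries within the first.

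From Pro to Sen cells, 6 of 47 H3K27ac regions near CDKN2A and CDKN2B were gained and 1 lost, and near CDKN1A 2 of 24 were gained and 4 lost, against 4.51% gained and 9.56% lost over the genome. The gained counts did not hold in the other Sen libraries: with all 4 Sen libraries they were 1 and 0, with those of the second deposit 1 and 1, and at −log10 q of 5 or more 0 and 0. Without Sen replicate 1 they were 10 and 5, and without Sen replicate 2 15 and 7. At chromosome 9 the lost count was 6 with the second deposit, 8 without Sen replicate 1, 2 without Sen replicate 2, 5 without Pro replicate 1 and 3 without Pro replicate 2. The strongest gained region at chromosome 9 was chr9:22176003-22176700 (4.88 and 3.88). The other 5 there, chr9:22098330-22098667, chr9:21853595-21854409, chr9:22080098-22080974, chr9:21855266-21855720 and chr9:22165251-22165619, had folds of 1.89 to 3.69, and the lost one was chr9:22102426-22102973 (2.68 and 2.32 in Pro cells). The gained regions chr9:21853595-21854409 and chr9:21855266-21855720 lie in the wider stretch chr9:21853595-21857345, in which Pro replicate 2 had a peak.

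The lost H3K27ac region of best rank near CDKN1A lay at the left end of the window. At chr6:36547351-36548074 both Pro libraries had a peak (7.96 and 4.41), none of the 4 Sen libraries had one, and both siFOXF1/2 libraries (7.29 and 5.71) and both cJUN/JUND-KD libraries (4.43 and 4.06) did. It was therefore called lost from Pro to Sen cells and gained in each knockdown. The first and the siFOXF1/2 comparison share Sen replicates 1 and 2, while the cJUN/JUND-KD comparison used Sen replicates 3 and 4. The 4 libraries of the sip300/CBP experiment had none. In Pro replicate 1 it was within the top 0.757% of the list, and its Pro replicate 2 peak within the top 28.8%. The other 3 lost regions lay close by, at chr6:36545106-36545411 (3.98 and 3.60), chr6:36545954-36546365 (3.16 and 3.18) and chr6:36558082-36558481 (3.89 and 3.50). The lost count near CDKN1A was 2 at −log10 q of 5 or more. The 2 gained regions, chr6:36695577-36696016 (3.34 and 4.34) and chr6:36650070-36650538 (2.66 and 2.62), had a peak only in Sen replicates 1 and 2 among the 14 H3K27ac libraries.

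After siFOXF1/2, 2 of 54 H3K27ac regions near CDKN2A and CDKN2B were gained and 1 lost, and 2 of 27 near CDKN1A were gained and 3 lost, against 5.51% gained and 4.26% lost over the genome. Gained at chromosome 9 were chr9:21872553-21873076 (3.59 and 3.64) and chr9:21973208-21973622 (3.27 and 3.31), and lost was chr9:22080098-22080974 (2.80 and 2.80 in Sen cells). Near CDKN1A, chr6:36547410-36548013 and chr6:36552985-36553261 (4.99 and 4.16) were gained, and chr6:36736963-36737381 and the 2 regions gained from Pro to Sen cells were lost. The first of these lost regions lies in the wider stretch chr6:36736796-36738398, in which both siFOXF1/2 libraries had a peak. With all 4 Sen libraries, where the rule is stricter, 0 regions were lost in either window. Without Sen replicate 1 the gained counts were 14 at chromosome 9 and 4 at CDKN1A and the lost counts 4 and 6, and without Sen replicate 2 the lost counts were 10 and 8. Without siFOXF1/2 replicate 1 the gained counts were 8 and 4, and without siFOXF1/2 replicate 2 they were 11 and 6, with 3 regions lost at chromosome 9.

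After cJUN/JUND-KD, 2 of 36 H3K27ac regions near CDKN2A and CDKN2B were gained and 2 lost, and 1 of 15 near CDKN1A was gained and 0 lost, against 7.66% gained and 2.74% lost over the genome. The gained regions were chr9:22128421-22129668 (4.33 and 3.62), chr9:22008718-22009794 (5.21 and 3.39) and chr6:36547578-36548074, and the lost ones chr9:22157876-22158711 and chr9:21855325-21855878. Several of these calls depend on how peaks meet. At the gain of chr9:22008718-22009794, 10 of 14 H3K27ac libraries, Sen replicates 1, 2 and 4 among them, had a peak in the wider stretch chr9:22008027-22009794. Both lost regions likewise lie in wider stretches, chr9:22156951-22159824 and chr9:21853595-21857345, in which cJUN/JUND-KD replicate 1 had a peak. With all 4 Sen libraries, where the rule is stricter, the chromosome 9 counts were 0 gained and 1 lost. Leaving out 1 library gave at chromosome 9 gained counts of 7 (Sen replicate 3), 4 (cJUN/JUND-KD replicate 1) and 11 (cJUN/JUND-KD replicate 2) and lost counts of 6 (Sen replicate 4) and 4 (cJUN/JUND-KD replicate 1). Near CDKN1A it gave 6 gained without cJUN/JUND-KD replicate 2, and 1 and 2 lost without Sen replicate 4 and cJUN/JUND-KD replicate 1. After sip300/CBP no region of either window was gained or lost (7 and 2 regions), with 2.02% gained and 2.69% lost over the genome. Leaving out 1 library there gave 0 to 3 gained and 0 to 2 lost.

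**Figure D4:**
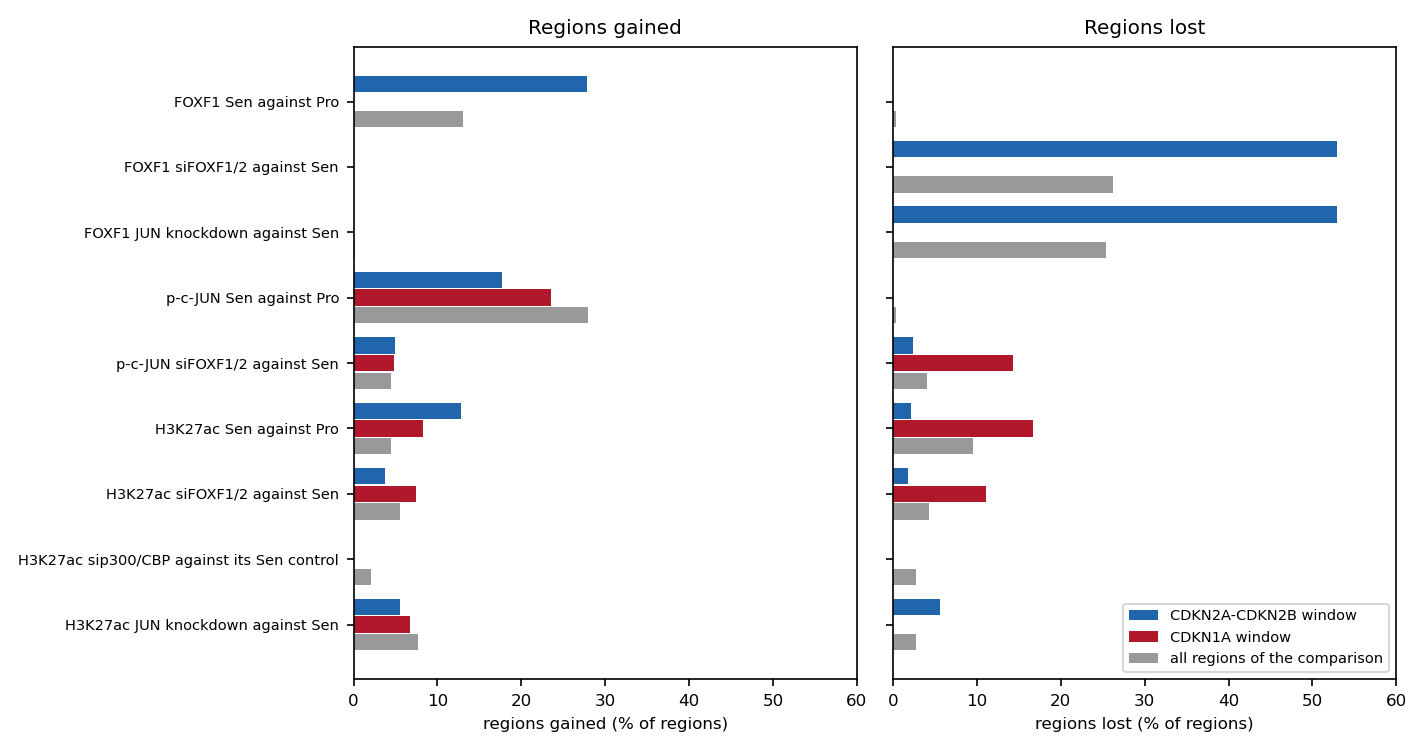
Share of regions gained (left) and lost (right) in each of 9 comparisons (rows), in percent of the regions in the CDKN2A-CDKN2B window, in the CDKN1A window and over the genome. The FOXF1 bars at CDKN2A-CDKN2B exceed the genome's in the gain from Pro to Sen cells and in the loss after both knockdowns. Their base includes regions with a peak in a single library. Of FOXF1 regions shared by both Sen libraries, 5 of 9 were gained there, and 9 of 9 were lost after each knockdown. Over the genome 5948 were gained and 11215 and 10984 lost, beside 11287 shared by the Sen libraries. The p-c-JUN gain from Pro to Sen cells lies below the genome's share in both windows.

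Peaks of the 3 antibodies coincided in part near CDKN2A and CDKN2B. Of the 9 FOXF1 regions shared by the Sen libraries, 7 coincided with p-c-JUN in Sen cells (73.9% over the genome), 5 with H3K27ac in Sen cells (69.1%) and 4 with p-c-JUN in Pro cells (42.0%). The 2 without a shared p-c-JUN region were chr9:22068633-22068942 and chr9:22124538-22125030, and neither met an H3K27ac region shared by Sen replicates 1 and 2. Single Sen libraries did have peaks there, p-c-JUN replicate 2 and H3K27ac replicates 1 and 3 at the first and H3K27ac replicate 1 at the second. The other 2 without a shared H3K27ac region were chr9:22147833-22148317 and chr9:22170279-22170677. They lie in wider stretches with H3K27ac peaks in some Sen libraries and in both Pro libraries. The Sen libraries were replicates 1, 3 and 4 in chr9:22147504-22150053 and replicates 1 and 4 in chr9:22169126-22171322. Seen from p-c-JUN, 7 of 20 Sen regions overlapped FOXF1, where 14.1% did over the genome, and 10 overlapped H3K27ac, where 44.0% did. These counts use regions held by both libraries of a group. Near CDKN1A no FOXF1 region was held by both Sen libraries, so no such overlap with FOXF1 could be counted. The FOXF1 peak of Sen replicate 1 at chr6:36561642-36561948 and that of Sen replicate 2 at chr6:36540697-36541106 each lay on 1 of the 7 p-c-JUN regions shared by the Sen libraries. Of these 7, 2 overlapped H3K27ac shared by Sen replicates 1 and 2, at chr6:36610753-36611335 and chr6:36634683-36635198. These are counts of few regions, set beside the genome's shares without a test.

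The peaks were unevenly spread over the chromosome 9 window. In stretches of 50 kb, chosen after the values were seen, the 20 p-c-JUN regions shared in Sen cells numbered 2, 2, 0, 2, 2, 8 and 4 from left to right, and the 9 FOXF1 regions 0, 1, 0, 1, 3, 2 and 2. The stretch chr9:21950000-22000000 held 0 FOXF1 regions in Pro or Sen cells, 0 p-c-JUN regions in Pro or Sen cells and 1 after siFOXF1/2. For H3K27ac it held 2 in Pro cells, 0 in Sen cells and 2 after siFOXF1/2, although single Sen libraries had peaks there. In the CDKN1A window the 7 p-c-JUN regions of Sen cells numbered 3, 2, 0, 2 and 0, the last stretch being 20 kb.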

How the data were processed

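The 28 deposited files were narrowPeak lists, 1 per library. Per the submitters' processing notes, MACS2 3.0.0, deepTools 3.1.1, SAMtools 1.9 and Bowtie2 2.3.4.1 were used with build hg19, and their parameters and any control library are not given in the sources used here. The deposited columns per peak were a display score, the fold enrichment (the ratio of the summit to its surroundings), and the −log10 p and q values from the authors' peak caller. They served to describe peaks, and to rank and filter them inside 1 list.

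Only chromosomes 1 to 22 and X were analysed, without the 475 peaks elsewhere. Python 3.11.15, pandas 2.3.3, numpy 2.4.6 and scipy 1.17.1 were used. Peak numbers were compared as log2(peaks + 1) by exact permutation of libraries. Gained, lost and shared regions needed an overlap of 1 bp and were computed over the whole genome. Depth was estimated by solving summit pileup and background from fold and −log10 p, which gave pileups within 0.001 of a whole number for at least 97.7% of peaks with −log10 p under 60, and taking the 0.1% quantile of the background per base of the narrowest peak. No count lies behind it to give an interval. The code was tested on simulated lists.

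Named regions are the gained and lost ones of each comparison and window (all, as none exceeded 10), and the most widely held region per antibody. Others, such as those held by all p-c-JUN libraries, were named after their values were seen. The members and lists were chosen with earlier results of these data known. A gene list of the pathway and the markers of cell types need start sites in hg19 and were not analysed here. Alternatives were lists of equal length, an overlap of 50%, −log10 q of 5 or more, a replicate block, other Sen libraries, and each library left out.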

Additional observations from a re-analysis of the deposited data

How the results depend on the processing

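Differences are in log2(peaks + 1) for the CDKN2A-CDKN2B window and then the CDKN1A window. Of 60 values under settings other than leaving out a library, 38 kept their direction, 13 reversed it and 9 moved to or from 0. The size of the shift did not enter these counts. At −log10 q of 5 or more, FOXF1 was at 0.00 at CDKN1A in all 3 of its comparisons, H3K27ac Sen minus Pro turned to −0.60 and −0.71, H3K27ac after siFOXF1/2 to 0.40 at CDKN1A, and after sip300/CBP it was 0.00 at CDKN2A-CDKN2B. In lists of equal length, FOXF1 was at 0.00 at CDKN1A in all 3 comparisons and at 0.00 at CDKN2A-CDKN2B after siFOXF1/2, where at most 133 peaks per list remain. At CDKN1A in such lists, p-c-JUN Sen minus Pro turned to −1.0, H3K27ac Sen minus Pro to −0.022, H3K27ac after cJUN/JUND-KD to −0.13 and after sip300/CBP it moved to −0.50. With all 4 Sen libraries, H3K27ac Sen minus Pro was −0.32 and −0.25, after siFOXF1/2 0.32 at CDKN1A, and after cJUN/JUND-KD −0.088 and −0.27. With Sen replicates 3 and 4, of the second deposit and with shorter lists than Pro cells, H3K27ac Sen minus Pro was −0.81 and −0.66. Apart from the equal list lengths, which leave fewer peaks, and the change of Sen libraries, the cause was not tested.

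Leaving out each library in turn gave 15 changes of direction among 72 values. The ranges were −0.15 to 0.16 and −0.61 to 0.22 for p-c-JUN after siFOXF1/2, −0.29 to 0.64 and −0.10 to 0.40 for H3K27ac Sen minus Pro, −0.076 to 0.85 and −0.34 to 0.16 after siFOXF1/2, −0.29 to 0.71 and −0.50 to 0.50 after sip300/CBP, and −0.31 to 1.11 and −0.70 to 0.98 after cJUN/JUND-KD. FOXF1 and p-c-JUN Sen minus Pro kept their direction, at 0.75 to 1.75 and 1.00 to 1.58 for FOXF1 and 0.89 to 1.80 and 1.01 to 1.84 for p-c-JUN, as did FOXF1 after both knockdowns. Leaving out a library could not change these signs, because the groups compared did not overlap, so only the ranges are informative.

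The labels state no pairing of replicate numbers, and deviations of same-numbered libraries correlated at −0.21 to 0.03 over regions. With the replicate block the differences were the same (1.25 for FOXF1 Sen minus Pro at CDKN2A-CDKN2B) and the smallest p was 0.5. No paired analysis was possible for H3K27ac after cJUN/JUND-KD because its Sen libraries carry other numbers. With 2 libraries per group and unknown read depth, absence of a peak means only that none was called.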
